A study of Mus musculus with 9 samples.

Results

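The hypoxia sensing genes are the 10 genes that encode the hypoxia-inducible factor (HIF) subunits and the enzymes that read oxygen for them. They were chosen by name among the 54532 genes of the cortex RNA table: the alpha subunits Hif1a, Epas1 and Hif3a, the beta subunits Arnt and Arnt2, the prolyl hydroxylases Egln1, Egln2 and Egln3, the ubiquitin ligase subunit Vhl and the asparaginyl hydroxylase Hif1an. The study compared inbred mouse strains that differ in the size of the infarct after a blocked cerebral artery. RNA of brain cortex was sequenced from 3 male mice of each of 3 strains, aged 8 to 12 weeks: C57BL6/J (B6, the strain of the reference genome), C3H/HeJ (C3H) and WSB/EiJ (WSB, a wild-derived strain). No treatment, surgery or altered allele is given for any of these mice, so the values are levels in untreated cortex.

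HIF pairs an alpha with a beta subunit and turns on genes for glycolysis, vessel growth and red cell formation when oxygen is scarce. While oxygen is present, the prolyl hydroxylases mark the alpha subunit, VHL binds the marked protein and sends it for degradation, and the asparaginyl hydroxylase keeps what is left from recruiting coactivators. In these steps oxygen acts on the alpha protein. The levels below are of transcripts and say nothing of the amount of HIF protein. In brain, Arnt2 is the beta subunit best known from neurons, while Arnt is found in nearly all tissues.

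Levels are given in FPKM, fragments per kilobase of gene after the authors' scaling for library size, and so can be compared between genes. Between 16317439 and 21562429 reads per library lay on genes. Each of the 10 genes passed the filter for testing, set at an average of 0.1 FPKM over the 6 libraries, in all 3 comparisons. The lowest number of reads was 74, for Hif3a in a WSB mouse, and the highest 8056, for Arnt2 in a WSB mouse. Each difference is one of log2(FPKM + 0.1), tested by limma with Benjamini-Hochberg adjustment over all genes tested, and a gene is called where the adjusted p is under 0.05.

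The 6 neuronal markers, which cortex should hold, summed to between 780 and 927 FPKM per library. Markers of neighbouring tissue varied between mice. The 5 choroid plexus genes summed to 64.4 to 762 FPKM in B6, 92.1 to 655 FPKM in C3H and 467 to 602 FPKM in WSB. The 6 striatal genes summed to 104.5 to 432 FPKM in B6, 98.1 to 264 FPKM in C3H and 77.0 to 208 FPKM in WSB. All 6 striatal genes were lower in WSB than in B6, with a median log2 difference of -0.70, and 0 were called. C3H replicate 2 stood apart: without it, 2301 genes were called between C3H and B6 in place of 956, and 2002 between WSB and C3H in place of 1182. The differences of C3H from B6 also rose with the GC content of the gene (Spearman correlation 0.49 across 12940 genes, which are not independent), more than those of WSB from B6 (0.11). The differences of WSB from C3H fell with it (-0.40 across 12998 genes).

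In all 3 strains the highest levels were those of Egln2 and Arnt2 and the lowest that of Hif3a. In B6, the order by mean FPKM was Egln2, Arnt2, Egln1, Epas1, Vhl, Hif1a, Hif1an, Arnt, Egln3 and Hif3a. The B6 mice of Egln2 and Arnt2 overlapped in level, as did those of Epas1 and Vhl, of Hif1a and Hif1an, and of Arnt and Egln3. In C3H, Egln2 lay above Arnt2 without overlap, Vhl stood above Epas1, and Egln3 stood above Arnt. In WSB, Arnt2 had the higher mean, but its lowest mouse, at 45.1 FPKM, was under the highest mouse of Egln2, at 46.9 FPKM.

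**Figure D1:**
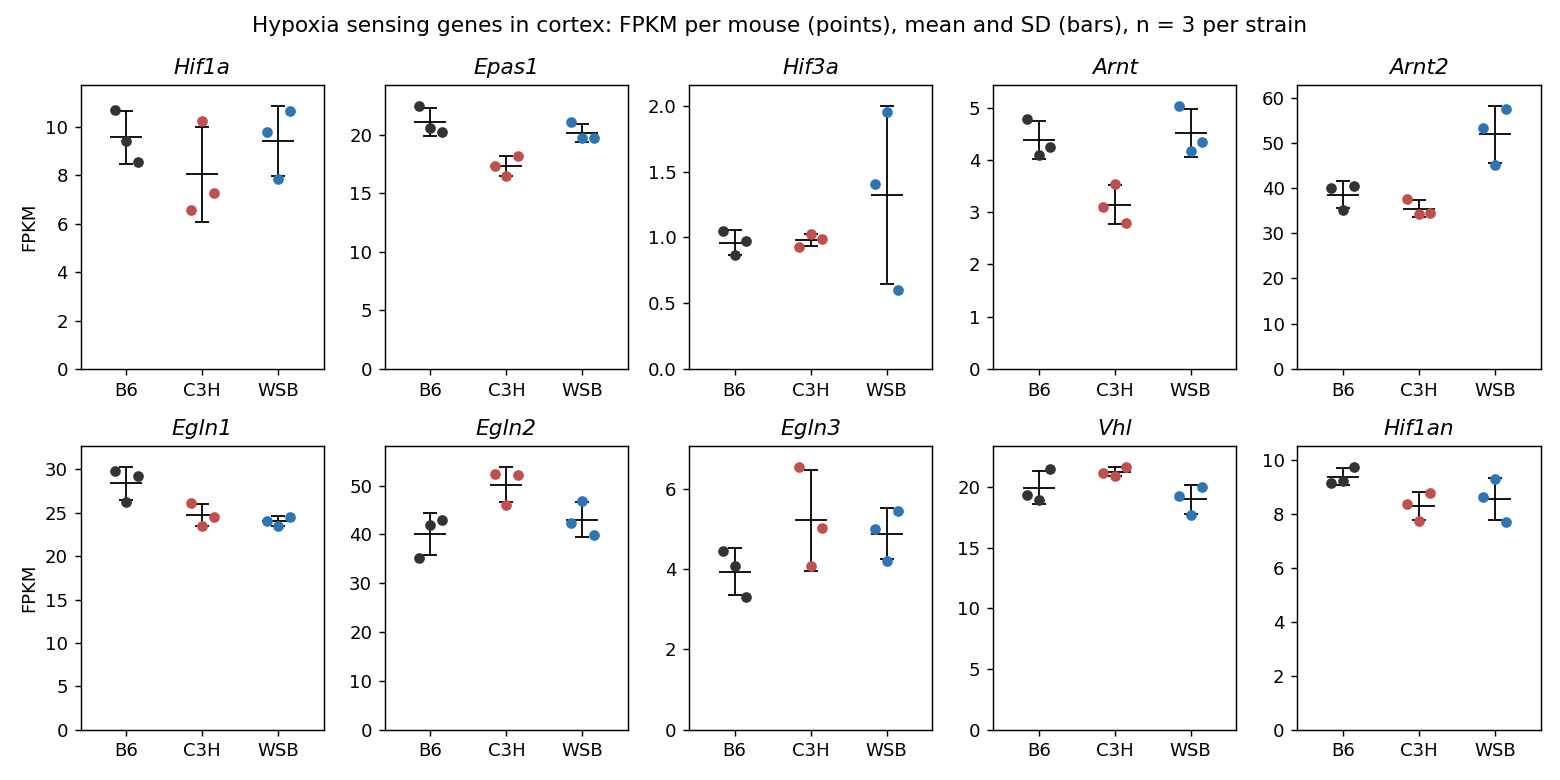
FPKM of the 10 hypoxia sensing genes in each mouse (points), with the mean and SD of each strain (bars, n = 3); each panel has its own linear axis from 0. The 3 WSB mice lie above all others for Arnt2, the 3 C3H mice lie below all others for Epas1 and Arnt, and the 3 B6 mice lie above all others for Egln1.

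Only 1 of the 30 tests, 10 genes in 3 comparisons, passed the threshold: Arnt2 was higher in WSB than in C3H. Between WSB and B6, limma called 0 of the 10 genes at an adjusted p under 0.05, against 5.90% of all genes tested, and 2 at an unadjusted p under 0.05, against 20.4%. Between C3H and B6 it called 0 of 10, against 4.64% of all genes, and 4 at an unadjusted p under 0.05, against 24.1%. Between WSB and C3H it called 1 of 10, against 5.74% of all genes, and 4 at an unadjusted p under 0.05, against 23.8%. With voom weights in limma the calls were 1, 1 and 2. No excess or lack of strain differences among the 10 genes is read from these counts.

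The mice of the strains did not overlap for 2 genes between WSB and B6 (Arnt2 and Egln1), where 26.0% of all genes did not. They did not overlap for 5 genes between C3H and B6 (Epas1, Arnt, Egln1, Egln2 and Hif1an), where the share of all genes was 28.9%. Between WSB and C3H, 4 genes did not overlap (Epas1, Arnt, Arnt2 and Vhl), against 28.6% of all genes. The median log2 difference of the 10 genes was 0.01 between WSB and B6, -0.15 between C3H and B6 and 0.13 between WSB and C3H, and those of all genes lay within 0.01 of 0. The median size of a difference, whatever its sign, was 0.12, 0.23 and 0.22, and for all genes 0.21, 0.25 and 0.25. The 95% confidence intervals reached a median of 0.24, 0.22 and 0.23 to either side. They are not adjusted over the genes tested, and a call asked for more. With 3 mice per strain, differences of 0.51 (Arnt, WSB from C3H), -0.47 (Arnt, C3H from B6) and 0.42 (Arnt2, WSB from B6) were not called.

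**Figure D2:**
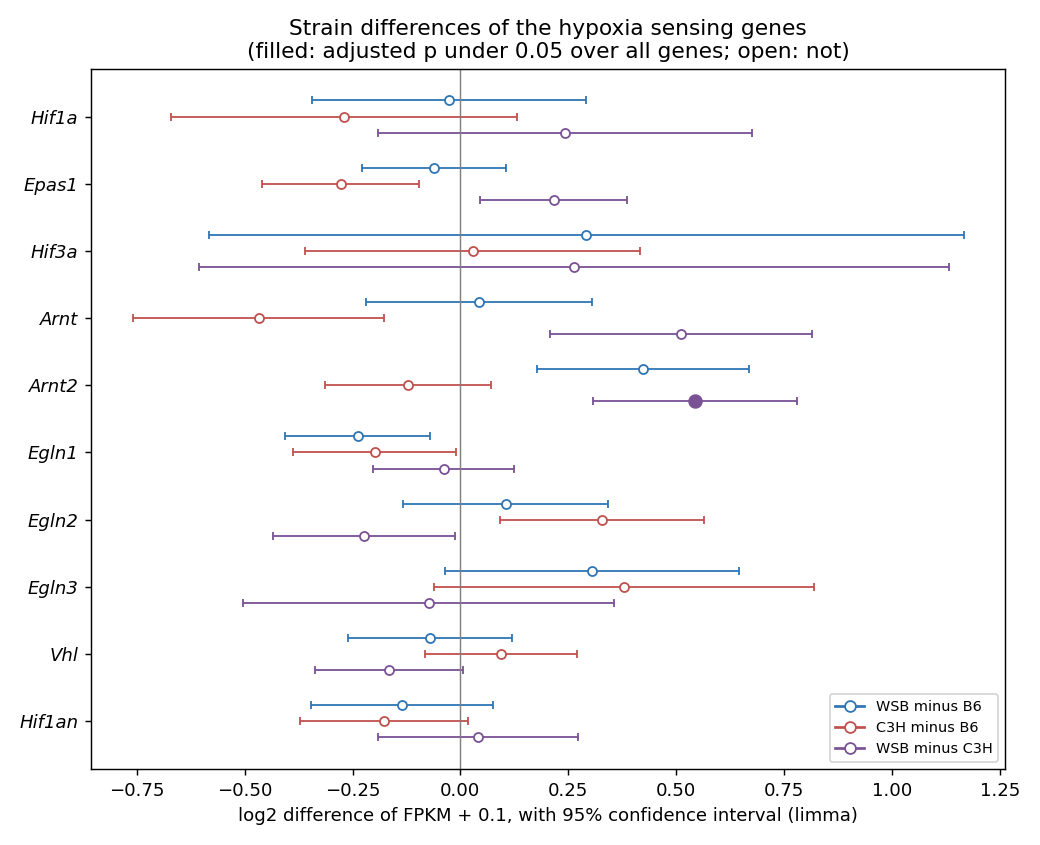
Log2 difference of FPKM + 0.1 of each hypoxia sensing gene between strains, with its 95% confidence interval from limma (3 mice per strain); filled points have an adjusted p under 0.05 over all genes tested. Arnt2 between WSB and C3H, at 0.54, is the 1 filled point, and the intervals of Hif3a in the comparisons with WSB are the widest.

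The alpha subunits carry the oxygen signal. Epas1 encodes HIF-2 alpha, known in brain mainly from endothelial cells and astrocytes, and was the most abundant of the 3. It measured 22.5, 20.6 and 20.2 FPKM in the B6 mice, 17.4, 16.5 and 18.2 FPKM in C3H and 21.1, 19.7 and 19.8 FPKM in WSB. All 3 C3H mice lay under every B6 and WSB mouse, and the latter strains overlapped. The log2 difference of C3H from B6 was -0.28 ± 0.08 (SE, adjusted p = 0.0941 by limma), and that of WSB from C3H was 0.22 ± 0.07 (adjusted p = 0.135). Neither passed the threshold as fitted, and both did with the GC trend removed, at -0.37 (adjusted p = 0.0364, limma) and 0.29 (adjusted p = 0.0385, limma). WSB differed from B6 by -0.06, with a 95% interval from -0.23 to 0.11. The 7 endothelial markers summed to 40.3 to 44.5 FPKM in B6, 37.9 to 50.5 FPKM in C3H and 24.3 to 31.6 FPKM in WSB, 2 of them (Slco1a4 and Ly6c1) were called lower in WSB, and Ly6c1 was at 0 in each WSB library. Ly6c1 made most of the lower sum, and the other 6 summed to 29.4 to 33.6 FPKM in B6, 25.9 to 32.4 FPKM in C3H and 24.3 to 31.6 FPKM in WSB. Still, all 7 endothelial markers were lower in WSB than in B6, with a median log2 difference of -0.56. Of these, 4 had an unadjusted p under 0.05 by limma, against 20.4% of all genes. Against C3H, 1 of the 7 was higher in WSB, and the median was -0.46. The 5 astrocyte markers summed to 172 to 207 FPKM in B6, 189 to 220 FPKM in C3H and 171 to 180 FPKM in WSB. The part of either cell type in the Epas1 differences was not tested.

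Hif1a encodes HIF-1 alpha, which most cell types use. Its levels were 10.7, 9.44 and 8.56 FPKM in B6, 6.57, 10.3 and 7.29 FPKM in C3H and 9.80, 7.85 and 10.6 FPKM in WSB. The strains overlapped, and the C3H mouse apart from the other two was replicate 2. The log2 difference of C3H from B6 was -0.27 ± 0.17 (SE, adjusted p = 0.369 by limma), and without C3H replicate 2 it was -0.46. Hif1a had the lowest GC content of the 10 genes, 41.3%, and its difference of C3H from B6 was -0.01 with the GC trend removed. The difference of WSB from B6 was -0.03, with an interval from -0.34 to 0.29. Hif1a shares 330 exon bases with the antisense gene Gm15283, which had at most 10 reads in a library, and 148 with Gm49321 on its own strand, which had 0.

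Hif3a, whose shorter products can restrain the other alpha subunits, was the least abundant. It lay between 0.863 and 1.05 FPKM in B6 and between 0.929 and 1.02 FPKM in C3H. The WSB mice measured 1.41, 1.95 and 0.604 FPKM, so that the WSB range took in both other strains and its highest mouse had 3.24 times the lowest. WSB exceeded B6 by 0.29 ± 0.37 on the log2 scale (SE, adjusted p = 0.726 by limma).

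As shares of the summed alpha FPKM of a mouse, Epas1 made up 59.4 to 69.9%, Hif1a 26.4 to 36.9% and Hif3a 1.95 to 6.62% over the 9 mice. The sum itself was 24.9 to 27.8 FPKM in C3H, under the 29.8 to 34.3 FPKM of B6 and the 29.5 to 32.3 FPKM of WSB. The ratio of Epas1 to Hif1a within a mouse averaged 2.21 in B6, 2.25 in C3H and 2.17 in WSB. These means differed by less than the spread between mice, with exact permutation p of 0.9 for WSB against B6, 1 for C3H against B6 and 0.9 for WSB against C3H. These ratios keep the GC trend, and their likeness depends on it. With the trend removed, C3H differed from B6 by -0.37 for Epas1 and -0.01 for Hif1a on the log2 scale. WSB then differed from C3H by 0.29 for Epas1 and 0.02 for Hif1a.

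The beta subunits are the partners with which the alpha subunits pair. In the reference genome (GRCm38), Arnt2 (ENSMUSG00000015709) lies on the minus strand of chromosome 7 from 84246278 to 84410176 and Arnt (ENSMUSG00000015522) on the plus strand of chromosome 3 from 95434388 to 95497240. Their promoters are shown because the levels and the ratio of these partners are compared below, with the HIF core motif, ACGTG or GCGTG on either strand, in capitals. The sequences come from RefSeq (GRCm38.p6), run 5′ to 3′ on the strand of the gene, hold the bases before the start that lie outside annotated exons, and are of B6, not of the other strains. The Arnt2 stretch is chr7:84410177-84410288 (minus strand) and that of Arnt is chr3:95434140-95434387 (plus strand).
Arnt2: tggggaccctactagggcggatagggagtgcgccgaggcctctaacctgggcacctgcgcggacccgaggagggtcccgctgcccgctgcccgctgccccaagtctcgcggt
Arnt: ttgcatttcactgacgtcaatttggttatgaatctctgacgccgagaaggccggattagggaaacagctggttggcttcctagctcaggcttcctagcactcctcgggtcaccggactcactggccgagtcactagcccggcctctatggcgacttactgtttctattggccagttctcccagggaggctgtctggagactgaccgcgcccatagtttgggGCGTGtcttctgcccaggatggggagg
No core was found in the 250 bases before the Arnt2 start, and 1 lay 29 bases before the Arnt start. Such a core was held by 38.6% of 32851 RefSeq promoter windows of 250 bases, so a match is a description and not a binding site.

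Arnt2 was the more abundant beta subunit. Its levels were 39.9, 35.2 and 40.5 FPKM in B6, 37.6, 34.1 and 34.5 FPKM in C3H and 53.2, 45.1 and 57.4 FPKM in WSB. Every WSB mouse lay above every mouse of the other strains, which overlapped each other. Arnt2 was 1.46-fold higher in WSB than in C3H, a log2 difference of 0.54 ± 0.10 (SE, n = 3 per strain), with a 95% interval from 0.31 to 0.78 and an adjusted p of 0.0239 by limma. From B6, WSB differed by 0.42 ± 0.10 (SE), with an interval from 0.18 to 0.67, and the adjusted p of 0.0653 by limma missed the threshold. C3H differed from B6 by -0.12 ± 0.08 (SE, adjusted p = 0.401, limma).

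The call of Arnt2 between WSB and C3H held in 11 of 17 alternative fits, with differences from 0.47 to 0.64 and adjusted p from 0.00565 to 0.0988. It was lost without a trend in limma (0.0846), with the replicate number as a block (0.0577), without C3H replicate 1 (0.0705) or 3 (0.0988) and without WSB replicate 1 (0.0946) or 3 (0.0711). The difference of WSB from B6 was called in 5 of 17 fits, the block among them (adjusted p = 0.0379, limma). Arnt2 shares 214 exon bases with the antisense gene Gm30873, which had at most 7 reads in a library, and whether reads were counted by strand is not given in the sources used here.

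Levels of other cell markers are given beside this result. The 4 markers of hippocampal cells summed to 61.6 to 71.4 FPKM in WSB, 33.3 to 51.0 FPKM in B6 and 45.8 to 48.7 FPKM in C3H, and 1 of them, Wfs1, was called higher in both comparisons with WSB. Wfs1 carried the higher sum, and the other 3 summed to 7.86 to 13.2 FPKM in WSB, 2.53 to 22.1 FPKM in B6 and 7.72 to 13.3 FPKM in C3H. The 6 oligodendrocyte markers summed to 385 to 551 FPKM in WSB, 689 to 866 FPKM in B6 and 645 to 872 FPKM in C3H, and 1, Mog, was called lower in WSB than in C3H. The 6 neuronal markers summed to 815 to 908 FPKM in WSB, 860.4 to 927 FPKM in B6 and 780 to 879 FPKM in C3H, and 1, Syt1, a calcium sensor of synaptic vesicles, was called. Syt1 averaged 149.5 FPKM in WSB, 82.0 FPKM in C3H and 177 FPKM in B6, and was called lower in C3H than in either other strain. Rgs5, 1 of 4 mural cell markers, was called higher in WSB than in C3H, with 13.1 against 7.87 FPKM, and Gfap, 1 of 5 astrocyte markers, lower, with 50.3 against 82.4 FPKM. The 4 mural markers summed to 39.6 to 52.1 FPKM in WSB, 45.3 to 47.2 FPKM in B6 and 39.7 to 50.6 FPKM in C3H. Of the mural markers 2 were higher in WSB than in C3H, and of the astrocyte markers 1. None of these genes was at 0, and their part in the Arnt2 difference was not tested. In bulk tissue, more cells of a type and more RNA per cell cannot be told apart.

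Arnt, the partner found in most tissues, was low in C3H. It measured 4.78, 4.09 and 4.25 FPKM in B6, 3.11, 3.54 and 2.79 FPKM in C3H and 5.03, 4.17 and 4.35 FPKM in WSB. All C3H mice lay under all others, and B6 and WSB overlapped. C3H differed from B6 by -0.47 ± 0.12 (SE, adjusted p = 0.0843 by limma) and WSB from C3H by 0.51 ± 0.13 (SE, adjusted p = 0.0695), so neither was called. Of 17 alternative fits, 2 called the former and 4 the latter. Without C3H replicate 2 both were called, at -0.55 (adjusted p = 0.0391, limma) and 0.60 (adjusted p = 0.0401, limma). With voom weights and all mice both were called too, at -0.48 (adjusted p = 0.0367, limma) and 0.52 (adjusted p = 0.0250, limma). The difference of WSB from B6 was 0.04, with an interval from -0.22 to 0.31.

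Arnt2 made up 89.3 to 93.0% of the summed beta FPKM of each mouse. The sum was 49.2 to 61.7 FPKM in WSB, above the 39.3 to 44.8 FPKM of B6 and the 37.3 to 40.7 FPKM of C3H. The ratio of Arnt2 to Arnt was 8.83 ± 0.62 (SD, n = 3) in B6, 11.4 ± 1.50 in C3H and 11.5 ± 1.45 in WSB. Every C3H and WSB mouse had a higher ratio than every B6 mouse, with log2 differences of 0.36 for C3H and 0.38 for WSB. Each gave an exact permutation p of 0.1 (two-sided), the smallest that 3 mice against 3 allow, and 0.2 after adjustment over the 12 ratio tests. With the GC trend removed, C3H differed from B6 by -0.20 for Arnt2 and -0.43 for Arnt, a smaller gap than with the trend kept. WSB then differed from C3H by 0.61 for Arnt2 and 0.50 for Arnt. The ratio rose beside a lower mean of Arnt in C3H and a higher mean of Arnt2 in WSB, while WSB and C3H differed by 0.02 (exact permutation p = 1).

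**Figure D3:**
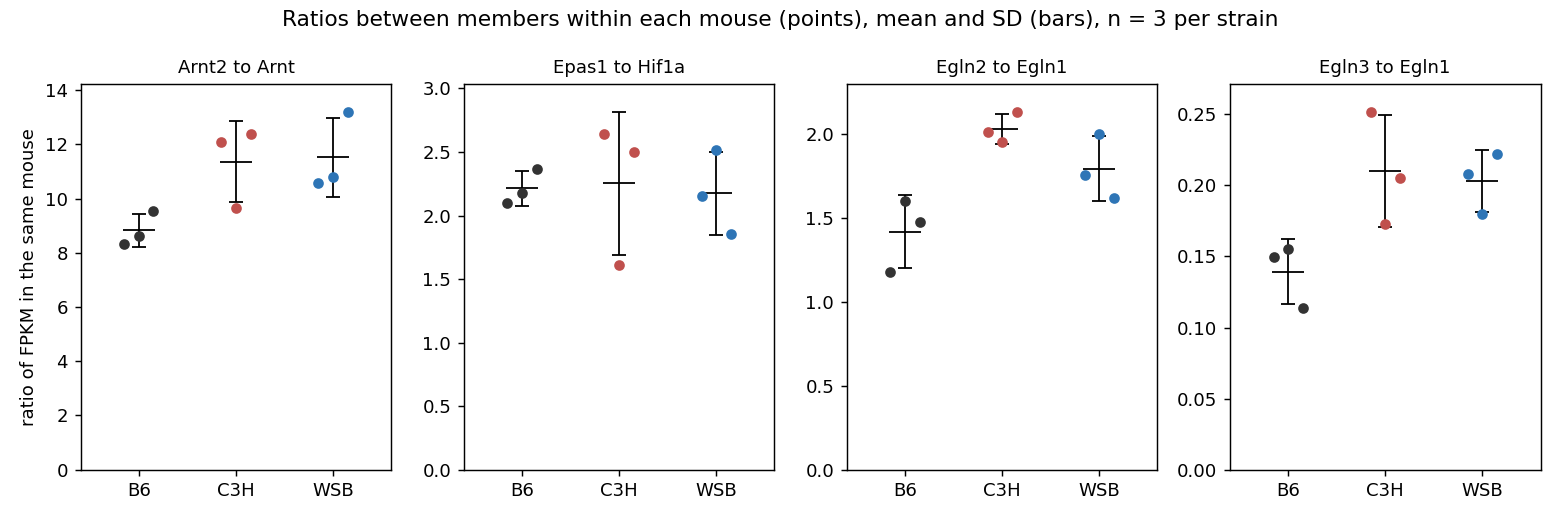
Ratios of FPKM between hypoxia sensing genes within each mouse (points), with the mean and SD of each strain (bars, n = 3), on linear axes from 0. For Arnt2 to Arnt, Egln2 to Egln1 and Egln3 to Egln1, all C3H and WSB mice lie above all B6 mice, while Epas1 to Hif1a overlaps between the strains.

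The 3 genes with the pattern most like that of Arnt2 over the 9 libraries, by Pearson's r of log2(FPKM + 0.1) among 13009 genes that averaged 1 FPKM or more, were Pigw (0.957), Pus7 (0.954) and Rhpn2 (0.945). Pigw acts in the making of glycosylphosphatidylinositol anchors, and averaged 1.51 FPKM in WSB, 1.05 in B6 and 0.898 in C3H. Pus7 makes pseudouridine in RNA, and averaged 2.74, 2.20 and 1.95 FPKM in the same order. Rhpn2 averaged 1.61, 1.24 and 1.17 FPKM. These are the highest of many correlations over strain means that differ, and are given as a description.

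The prolyl hydroxylases use oxygen to mark the alpha subunits. Egln1 is the main one in most cells, Egln2 is oestrogen-responsive, and Egln1 and Egln3 are themselves HIF targets. Their promoters are shown because the ratios among these 3 genes are compared below, in the same form as above. The stretches are chr8:124949325-124949504 for Egln1, chr7:27166803-27167052 for Egln2 and chr12:54203875-54204124 for Egln3, all on the minus strand.
Egln1: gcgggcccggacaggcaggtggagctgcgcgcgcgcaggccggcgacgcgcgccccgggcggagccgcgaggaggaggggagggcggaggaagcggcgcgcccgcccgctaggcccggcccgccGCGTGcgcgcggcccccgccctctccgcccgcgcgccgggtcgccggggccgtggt
Egln2: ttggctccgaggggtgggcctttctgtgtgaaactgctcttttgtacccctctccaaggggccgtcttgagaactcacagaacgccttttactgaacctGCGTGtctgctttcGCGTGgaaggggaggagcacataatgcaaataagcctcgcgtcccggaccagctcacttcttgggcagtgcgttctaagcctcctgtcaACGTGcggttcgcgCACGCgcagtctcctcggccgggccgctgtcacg
Egln3: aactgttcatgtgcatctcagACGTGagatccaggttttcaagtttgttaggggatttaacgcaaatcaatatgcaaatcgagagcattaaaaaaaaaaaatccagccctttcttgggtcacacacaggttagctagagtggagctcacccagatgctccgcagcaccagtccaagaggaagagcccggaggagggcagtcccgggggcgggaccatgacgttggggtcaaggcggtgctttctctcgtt
The 250 bases before the Egln1 start held 2 cores, of which 1 is in the part shown, those before Egln2 held 4, and those before Egln3 held 1. Another Egln2 start, inside the gene, had 1. Epas1 had no match in the RefSeq promoter table, and among the 10 windows of the other 9 genes, 7 held a core, those of Arnt2, Vhl and Hif1an being without.

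Egln2 was the most abundant hydroxylase. It measured 35.1, 42.0 and 43.0 FPKM in B6, 52.4, 46.0 and 52.2 FPKM in C3H and 42.3, 46.9 and 39.8 FPKM in WSB. All C3H mice lay above all B6 mice, and WSB overlapped both. The log2 difference of C3H from B6 was 0.33 ± 0.10 (SE, adjusted p = 0.115 by limma). Egln2 had the highest GC content of the 10 genes, 62.2%, and this difference was 0.13 with the GC trend removed (adjusted p = 0.183, limma). It shares 11 exon bases with Cyp2t4, which had at most 39 reads in a library.

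Egln1 was highest in B6. Its levels were 29.8, 26.2 and 29.2 FPKM in B6, 26.1, 23.5 and 24.5 FPKM in C3H and 24.1, 23.4 and 24.6 FPKM in WSB. Every B6 mouse lay above every other mouse, and C3H and WSB overlapped. The log2 difference from B6 was -0.24 ± 0.07 in WSB (SE, adjusted p = 0.114 by limma) and -0.20 ± 0.08 in C3H (SE, adjusted p = 0.189), and neither was called. These comparisons share the B6 mice. With the GC trend removed, the difference of C3H was -0.34 (adjusted p = 0.0556, limma).

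Egln3, the least abundant hydroxylase, measured 4.45, 4.07 and 3.31 FPKM in B6, 6.56, 4.07 and 5.03 FPKM in C3H and 5.01, 4.21 and 5.45 FPKM in WSB. The means were higher in C3H and WSB, and both strains overlapped B6. The log2 differences were 0.38 ± 0.19 for C3H (SE, adjusted p = 0.262 by limma) and 0.31 ± 0.15 for WSB (SE, adjusted p = 0.295).

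Within a mouse, the ratio of Egln2 to Egln1 was 1.42 ± 0.22 (SD, n = 3) in B6, 2.03 ± 0.09 in C3H and 1.79 ± 0.19 in WSB. All C3H and WSB mice had higher ratios than all B6 mice, by 0.53 and 0.34 on the log2 scale (exact permutation p = 0.1 each, 0.2 adjusted). The ratio of Egln3 to Egln1 was 0.139 ± 0.023 in B6, 0.210 ± 0.039 in C3H and 0.203 ± 0.022 in WSB, again without overlap with B6, at 0.59 and 0.55 (exact permutation p = 0.1 each, 0.2 adjusted). Both ratios share Egln1 and the B6 mice, so they are not separate evidence. With the GC trend removed, the C3H differences of these ratios were 0.47 and 0.66. WSB and C3H differed by -0.18 (exact permutation p = 0.2) and -0.04 (exact permutation p = 1). As shares of the summed hydroxylase FPKM, Egln2 made up 50.6 to 63.8%, Egln1 30.0 to 42.9% and Egln3 4.39 to 7.80%.

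Vhl, which recognises the hydroxylated alpha subunit, varied least between the C3H mice, by 1.03 times from the lowest to the highest. It measured 19.4, 19.0 and 21.5 FPKM in B6, 21.2, 21.0 and 21.7 FPKM in C3H and 19.2, 17.7 and 20.0 FPKM in WSB. The C3H mice lay above the WSB mice, and B6 overlapped both. The log2 difference of WSB from C3H was -0.16 ± 0.07 (SE, adjusted p = 0.224 by limma). Hif1an, the asparaginyl hydroxylase also called FIH, measured 9.15, 9.22 and 9.74 FPKM in B6, 8.36, 7.73 and 8.75 FPKM in C3H and 8.63, 9.28 and 7.71 FPKM in WSB. The B6 mice lay above the C3H mice, and WSB overlapped both. For C3H against B6 the log2 difference was -0.18 ± 0.08 (SE, adjusted p = 0.240 by limma).

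**Figure D4:**
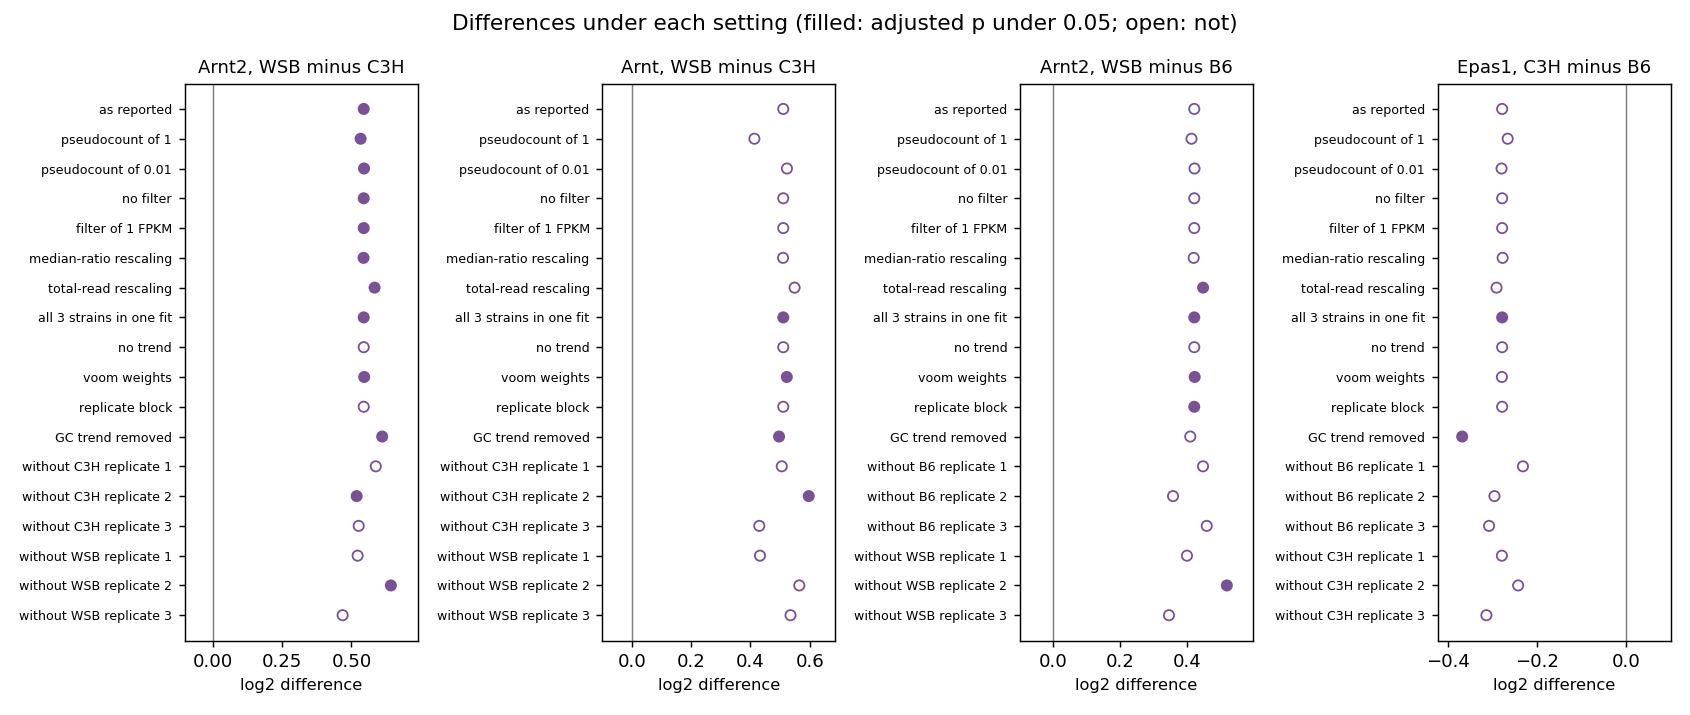
Log2 differences of Arnt2, Arnt and Epas1 under each alternative way of fitting, one row per setting; filled points have an adjusted p under 0.05. Arnt2 between WSB and C3H stays between 0.47 and 0.64 and is filled in 11 of 17 alternatives, and the others are filled in 4 (Arnt), 5 (Arnt2 against B6) and 2 (Epas1).

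The rest of the pathway was read from 6 lists of 82 genes, 77 of them tested. Of these, 1 was called between WSB and B6, against 5.90% of all genes tested, 1 between C3H and B6, against 4.64%, and 3 between WSB and C3H, against 5.74%. Of 46 genes known as HIF targets, 44 were tested, and Epo, the red cell hormone, and Nos2 were too low. The median log2 difference of the targets was 0.03 between WSB and B6, 0.05 between C3H and B6 and -0.06 between WSB and C3H, near the medians of all genes given above.

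Of the 19 targets for glucose uptake and glycolysis, Eno1 alone was called, lower in WSB and in C3H than in B6. Eno1, the enolase of glycolysis, measured 176, 192 and 196 FPKM in B6, 139, 109.8 and 129 FPKM in C3H and 107, 110.2 and 102 FPKM in WSB. The log2 differences from B6 were -0.82 in WSB (adjusted p = 8.33e-04 by limma) and -0.58 in C3H (adjusted p = 0.0227), without overlap. Eno1b, a near-identical copy looked up after the values were seen, had 6 to 22 reads per B6 library, 2544 to 3159 per C3H library and 2020 to 2475 per WSB library. Reads of the copies can be taken for each other, so the level of Eno1 is uncertain. With the reads of both summed, an alternative added after seeing the data, the difference was -0.53 in WSB (adjusted p = 0.00919, limma) and -0.30 in C3H (adjusted p = 0.147, limma), where the call was lost. The C3H call was lost in 6 of 18 alternatives in all, also without a trend (0.0844), with the replicate block (0.0912) and without B6 replicate 2 (0.0997), B6 replicate 3 (0.0837) or C3H replicate 3 (0.0772), while that of WSB held in all 18.

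Of the 10 targets for vessel and red cell signals, 8 were tested and 1 was called. Vegfa, the main growth factor of blood vessels, measured 18.4, 13.6 and 13.7 FPKM in B6, 10.3, 11.0 and 10.8 FPKM in C3H and 15.4, 14.9 and 18.3 FPKM in WSB. The C3H mice lay under all others. The log2 difference of WSB from C3H was 0.59 (adjusted p = 0.0154 by limma), and that of C3H from B6 was -0.49 (adjusted p = 0.0778). The call held in 13 of 17 alternatives and was lost without C3H replicate 1 (0.0762) or 3 (0.0616), with the replicate block (0.0539) and without a trend (0.0561). With voom weights, 2 genes of this list, Vegfa and Tfrc, were called lower in C3H than in B6, and the same 2 higher in WSB than in C3H. Of the 17 targets of the wider hypoxic stress response, limma called 0 in each comparison, with 4, 2 and 2 at an unadjusted p under 0.05 in WSB against B6, C3H against B6 and WSB against C3H, and with voom weights 1 (Bhlhe40, a repressor of transcription, lower in WSB than in B6). Of the 20 HIF regulators and subunits of the VHL complex, limma called 0 in each comparison with either kind of fit, with 1, 6 and 4 at an unadjusted p under 0.05. Over all genes the shares at an unadjusted p under 0.05 were 20.4%, 24.1% and 23.8%, and nothing is read from these list counts. Without C3H replicate 2, 4 of these 20 were called between C3H and B6 (Elob, Eloc, Fkbp8 and Hsp90aa1) and 3 between WSB and C3H (Fkbp8, Hsp90aa1 and Wsb1).

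Among 11 other factors of the family of Hif1a and Arnt, called bHLH-PAS, 8 were tested and 1 was called. Arntl, the clock factor BMAL1, measured 4.60, 3.65 and 4.32 FPKM in B6, 2.84, 3.64 and 3.03 FPKM in C3H and 4.92, 4.53 and 4.93 FPKM in WSB, a log2 difference of WSB from C3H of 0.59 (adjusted p = 0.0362 by limma). The median of the 8 was 0.30 in that comparison and -0.42 between C3H and B6. In the latter, limma called 0, with 5 at an unadjusted p under 0.05 (24.1% of all genes). With voom weights 1 was called there (Clock, the partner of Arntl). Among 5 other dioxygenases that use oxygen, P4htm, a membrane-bound prolyl hydroxylase that acts on HIF alpha, was called. It measured 19.5, 23.6 and 23.4 FPKM in B6, 31.1, 25.7 and 29.2 FPKM in C3H and 20.0, 21.8 and 21.8 FPKM in WSB, a difference of WSB from C3H of -0.43 (adjusted p = 0.0374, limma). The calls of Arntl and P4htm were each lost in 5 of the 6 fits that left out a mouse, all but that without C3H replicate 2, with adjusted p up to 0.130 and 0.136. They were also lost with the replicate block (0.117 and 0.118), without a trend (0.0698 and 0.111) and with no filter (0.0522 and 0.0522), so that each held in 9 of 17 alternatives.

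**Figure D5:**
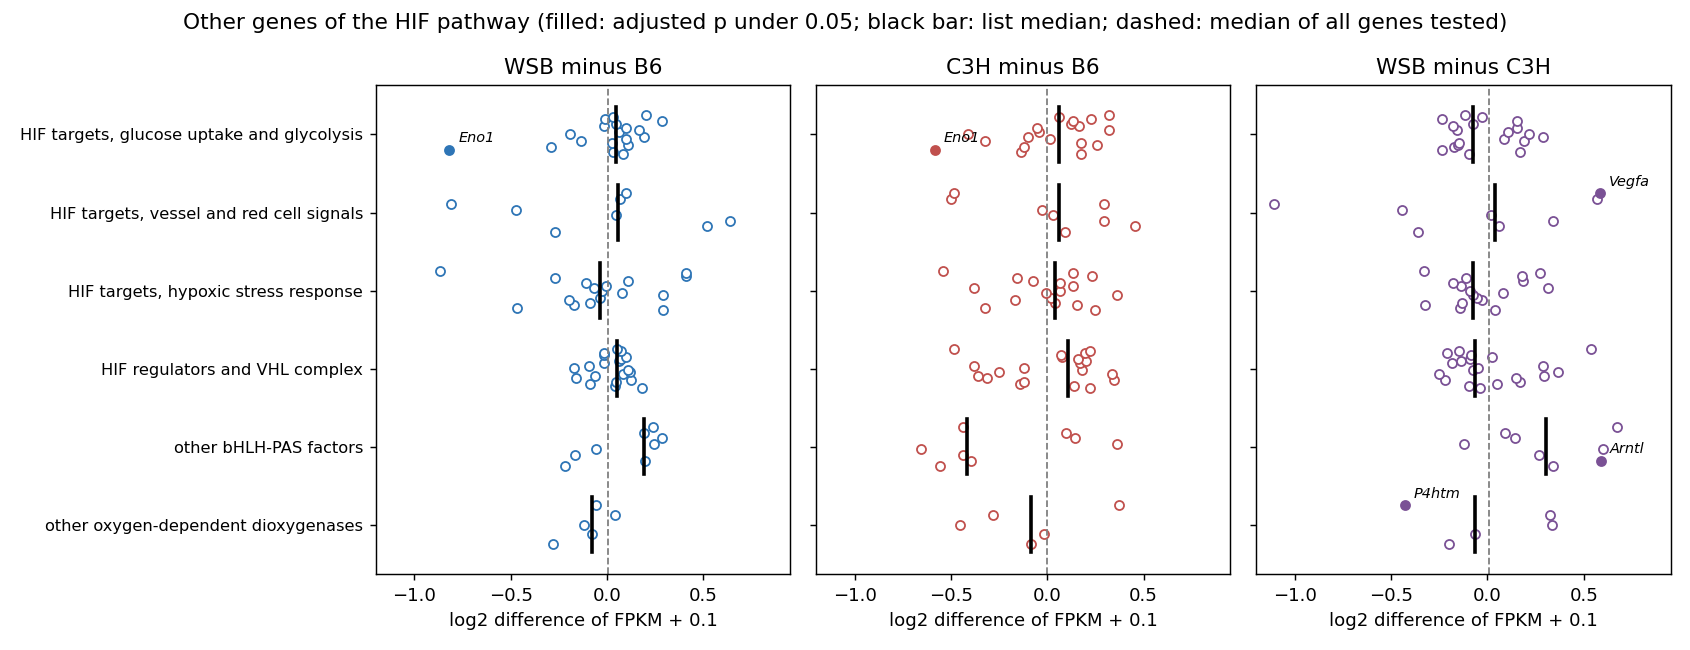
Log2 differences of FPKM + 0.1 of the 77 tested genes in 6 lists of the HIF pathway, one panel per comparison; filled, named points have an adjusted p under 0.05, black bars are list medians and dashed lines the medians of all genes tested. Eno1 is filled in both comparisons with B6, and Vegfa, Arntl and P4htm between WSB and C3H.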

How the data were processed

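RNA from the cortex of 9 males, 3 per strain and each its own library, was read from both ends. Per the paper's methods, the authors removed adapters (Cutadapt) and obtained gene counts (HTSeq), and what they deposited is a table of FPKM. The submitters' processing notes also name STAR and DESeq2, and the genome build is not given in the sources used here. Of 54532 gene identifiers, 53499 had the same coordinates in GENCODE M21 (GRCm38). Deposited FPKM multiplied by gene length came in whole steps (100% of values, within 0.01), which gave reads per gene, used for depth and voom weights only. The deposited values were already scaled by size factors, so FPKM stands for fragments per kilobase of gene length, scaled by those factors.

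Pairs of strains were compared with limma 3.58.1 in R 4.3.3 (lmFit and trended eBayes, two-sided) of log2(FPKM + 0.1). Genes entered where their average over the 6 libraries reached 0.1 FPKM, with Benjamini-Hochberg adjustment over all genes tested and a threshold of 0.05. The log2(value + pseudocount) scale understates changes of low genes. The fit was tested on simulated data first. Ratios between genes were compared by exact permutation tests (SciPy 1.17.1). Each mouse has its own identifier in the labels, and no pairing by replicate number is given there. SDs are of the spread between mice. SEs and confidence intervals are those of limma, which draws the variance of each gene toward a trend over all genes.

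The genes and lists were chosen with earlier results of these data known, and no list was tested as a set. Named were all 10 hypoxia sensing genes, every called gene of the pathway lists (at most 6 per list), called marker genes, genes overlapping a member, and the 3 genes most like a called member. Values had been seen when Bhlhe40, Clock, Gapdh, Tfrc, Eno1b and the regulators called without C3H replicate 2 were added to these names. Of the other marker lists, limma called 1 of 4 mural genes (Rgs5), 1 of 5 astrocyte genes (Gfap) and 1 of 6 neuronal genes (Syt1) between WSB and C3H, Syt1 also between C3H and B6, 1 of 5 microglial genes in each comparison with B6 (Csf1r lower in WSB, Aif1 higher in C3H), and 2 of 5 red cell genes in WSB against B6 (Hba-a1 higher, Hbb-bt lower), 3 in C3H against B6 (Hba-a1, Hbb-bs and Alas2, higher) and the same 3 in WSB against C3H (lower). It called 0 of 5 choroid plexus genes and 0 of 6 striatal genes. The 5 red cell genes summed to 632 to 1009.5 FPKM in C3H, 217 to 254 FPKM in B6 and 249 to 329 FPKM in WSB. The alternatives were a pseudocount of 1 or 0.01, the filter left out or set at 1 FPKM, rescaling by median ratios or total reads, all 3 strains in one fit, no trend, voom weights, a replicate block, removal of the GC trend (lowess, span 0.3) and leaving out each mouse.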

Additional observations from a re-analysis of the deposited data

Results flagged for a closer look

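The fit of WSB against C3H tests whether these strains differ from B6 by unequal amounts, and 4 genes of the pathway passed it. Arnt2 differed by 0.54 on the log2 scale (limma, adjusted p = 0.0239), with all 3 WSB mice above all C3H and B6 mice. Vegfa differed by 0.59 (limma, adjusted p = 0.0154), with all 3 C3H mice below all others. Arntl differed by 0.59 (limma, adjusted p = 0.0362) and P4htm by -0.43 (limma, adjusted p = 0.0374), in both cases without overlap between WSB and C3H. Between WSB and C3H, 5.74% of all genes tested were called.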

How the results depend on the processing

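With 3 mice per strain, the spread between mice set what could be detected. No call of a hypoxia sensing gene or pathway gene changed its direction. The numbers of genes called moved most when a mouse was left out, to 651 to 825 between WSB and B6, 498 to 2301 between C3H and B6 and 475 to 2002 between WSB and C3H, the highest of the latter pairs without C3H replicate 2. With voom weights 1488 genes were called between C3H and B6. The numbers of hypoxia sensing genes called were 0 to 1, 0 to 1 and 0 to 2 over these fits. Between WSB and B6 the number was 1 with total-read rescaling, all 3 strains in one fit or voom weights (Arnt2 each time). Between C3H and B6 it was 1 with all 3 strains in one fit (Epas1), voom weights (Arnt) or the GC trend removed (Epas1). Between WSB and C3H it was 2 with all 3 strains in one fit or voom weights (Arnt and Arnt2), 3 with the GC trend removed (Epas1 too) and 0 without a trend.

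The deviations of same-numbered mice from their strain means had correlations from -0.157 to 0.037, and those of other pairs from -0.150 to 0.196. No pairing was seen, but with 3 mice per strain this cannot exclude something shared by number. With the replicate number as a block, 754, 480 and 531 genes were called between WSB and B6, C3H and B6 and WSB and C3H, and 1, 0 and 0 of the hypoxia sensing genes. The block also ended the calls of Vegfa (0.0539), Arntl (0.117) and P4htm (0.118) between WSB and C3H and of Eno1 between C3H and B6 (0.0912), all adjusted p by limma.

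With the GC trend removed, 2 glycolysis genes were called between WSB and B6 (Eno1 and Gapdh), and the log2 difference of Epas1 to Hif1a between C3H and B6 was -0.35 in place of -0.01. Leaving out 1 mouse gave 0 to 1 called glycolysis genes between C3H and B6 and between WSB and C3H, 0 to 1 vessel and red cell genes in both, 0 to 4 and 0 to 3 regulators, 0 to 1 and 0 to 2 bHLH-PAS factors, and 0 to 2 and 0 to 1 dioxygenases. Each highest number above 1 was without C3H replicate 2.

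Small, uncalled differences changed sign. With the GC trend removed, Hif1a in WSB against B6 went to 0.0073, Hif3a in C3H against B6 to -0.046 and Egln1 in WSB against C3H to 0.073, and total-read rescaling took the last to 0.00015. Leaving out 1 mouse gave ranges of -0.12 to 0.099 (Hif1a), -0.040 to 0.73 (Hif3a) and -0.036 to 0.11 (Arnt) in WSB against B6, -0.039 to 0.088 (Hif3a) in C3H against B6, and -0.069 to 0.70 (Hif3a), -0.073 to 0.00050 (Egln1), -0.24 to 0.10 (Egln3) and -0.020 to 0.11 (Hif1an) in WSB against C3H. The causes were not tested.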
